A study of Mus musculus with 4 samples.

Results

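The 10 genes described here encode transcription factors and regulators linked to pluripotency in naive mouse embryonic stem (mES) cells: Pou5f1, Nanog, Sox2, Klf2, Klf4, Klf5, Esrrb, Zfp42, Tbx3 and Prdm14. They were chosen by name, as pluripotency genes known to be active in 2i and LIF, and make up 10 of the 22380 protein-coding genes annotated on mm9. Around them, 57 of the 30047 peaks of 4 ChIP-seq libraries lay within 100 kb of a transcription start site (TSS): 9 of Dzip3, 24 of Ring1B, 23 of ubiquitylated histone H2A (ubH2A) and 1 of input DNA. The lists hold no measure of transcription, so the activity of the genes is background here and was not checked.

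All libraries came from E14 mES cells of strain 129/Ola at passage 3 to 5. The cells grew without feeders on dishes coated with 0.5% gelatin, in N2B27 medium with 1 µM PD0325901 (a MEK inhibitor), 3 µM CHIR99021 (a GSK3 inhibitor) and 1000 U/ml LIF, and were fixed in 1% formaldehyde for 10 min. The antibodies to Dzip3, Ring1B and ubH2A were raised in rabbits by the authors, and there is 1 library for each target and 1 of input DNA, with no replicate and no other culture condition. The methods of the study name micrococcal nuclease for fragmentation, whereas the sample labels name a Picoruptor, and the effect of this difference on the values was not tested.

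Ring1B is the catalytic subunit of polycomb repressive complex 1 (PRC1), and it places ubiquitin on lysine 119 of histone H2A, a mark of repressed genes. Dzip3 is another ubiquitin ligase for the same residue. PRC1 is known for sitting on the CpG-rich promoters of developmental genes in mES cells, while genes of the naive network are transcribed and shape the identity of these cells through Oct4 (the product of Pou5f1), Sox2, Nanog and a group of supporting factors.

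The question was whether Dzip3, Ring1B or ubH2A was found at these active genes, and how far from their TSSs. A peak was counted at the promoter when its nearest edge lay within 4 kb of any annotated TSS. At this distance 8 of the 10 genes had no peak of any list: Pou5f1, Nanog, Sox2, Klf2, Klf4, Klf5, Zfp42 and Tbx3. The 2 genes with a promoter peak were Prdm14, with Dzip3 at 3.90 kb inside its own intron, and Esrrb, with Ring1B at a TSS inside the gene. No ubH2A peak lay at any of the 10 promoters, against 3.37% of all genes examined, and no input peak at the 9 that could be examined.

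The sequences below carry these results. The first 4 are the Dzip3 peaks closest to a member, and the other 2 are Ring1B peaks, one in an intron 510 bp downstream of an internal TSS of Esrrb and one upstream of Zfp42. All are read from the mm9 reference on the plus strand. In the Dzip3 peaks capitals mark runs of TG or CA of at least 8 bases, and in the Ring1B peaks they mark CG dinucleotides.
Prdm14, Dzip3, chr1:13113133-13113344: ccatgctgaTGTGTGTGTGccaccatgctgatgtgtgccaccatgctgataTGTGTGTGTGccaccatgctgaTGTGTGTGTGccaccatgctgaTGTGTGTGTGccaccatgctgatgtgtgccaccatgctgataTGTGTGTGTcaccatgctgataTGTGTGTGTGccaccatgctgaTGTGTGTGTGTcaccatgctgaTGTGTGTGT
Nanog, Dzip3, chr6:122661625-122661824: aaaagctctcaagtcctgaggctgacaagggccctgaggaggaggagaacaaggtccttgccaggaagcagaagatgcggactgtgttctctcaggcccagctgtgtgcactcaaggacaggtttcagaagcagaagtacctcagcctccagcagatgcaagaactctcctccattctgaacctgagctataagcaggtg
Klf2, Dzip3, chr8:74835994-74836193: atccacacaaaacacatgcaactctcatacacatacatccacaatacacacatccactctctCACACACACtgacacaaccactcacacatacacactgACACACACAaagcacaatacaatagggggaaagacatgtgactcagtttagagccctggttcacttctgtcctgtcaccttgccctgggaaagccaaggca
Tbx3, Dzip3, central 300 bases, chr5:120144212-120144511: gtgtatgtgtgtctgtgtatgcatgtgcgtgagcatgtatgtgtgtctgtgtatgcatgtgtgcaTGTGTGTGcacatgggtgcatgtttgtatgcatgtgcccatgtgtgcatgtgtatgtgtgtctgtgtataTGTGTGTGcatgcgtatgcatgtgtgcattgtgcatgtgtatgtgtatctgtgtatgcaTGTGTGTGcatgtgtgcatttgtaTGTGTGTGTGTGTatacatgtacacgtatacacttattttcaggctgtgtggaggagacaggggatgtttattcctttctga
Esrrb, Ring1B, central 300 bases, chr12:87763456-87763755: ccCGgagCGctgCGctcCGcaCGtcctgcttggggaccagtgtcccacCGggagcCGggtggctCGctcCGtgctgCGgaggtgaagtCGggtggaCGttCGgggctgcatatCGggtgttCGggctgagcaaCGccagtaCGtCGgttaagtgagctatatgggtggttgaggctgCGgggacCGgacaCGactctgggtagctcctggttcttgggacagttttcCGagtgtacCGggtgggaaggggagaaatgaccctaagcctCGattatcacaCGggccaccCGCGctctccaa
Zfp42, Ring1B, chr8:44404607-44404826: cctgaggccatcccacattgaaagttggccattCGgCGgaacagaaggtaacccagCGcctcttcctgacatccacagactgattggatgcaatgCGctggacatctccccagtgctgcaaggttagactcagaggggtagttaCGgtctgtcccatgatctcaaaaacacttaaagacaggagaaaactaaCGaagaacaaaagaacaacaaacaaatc

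Seen side by side, the Prdm14 peak is a tandem array in which 8 runs of TG alternate with a short spacer, and the Klf2 and Tbx3 peaks also hold such runs. The Nanog peak has none. The Esrrb peak has 27 CG dinucleotides in the 300 bases shown and the Zfp42 peak has 6 in 220, against 0 in the Prdm14 and Klf2 peaks, 1 in the Nanog peak and 3 in the bases shown for Tbx3.

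The values behind each peak are reads of the 4 libraries inside it, which the lists give for every library whether or not it has a peak there. By extended reads and RPM, the input library held 48.3 M reads, the Ring1B library 51.8 M, the Dzip3 library 53.3 M and the ubH2A library 67.0 M. The study's methods state a lower depth in uniquely mapped reads than these sizes, which were used here because the listed RPM values rest on them. The lowest peaks of these lists had a height of 15, 31, 33 and 32 extended reads respectively, so a gene without a peak may still have carried fewer reads than this. Scaled reads are reads divided by library size in M reads (RPM), and a scaled ratio is the quotient of these in a pair of libraries, with 0.5 reads added to each and a 95% interval that covers counting error only. Peaks were listed for the height of their own library. Any ratio of that library, to input DNA or to another target, is therefore a description that the listing favors. The reads of the other libraries had no part in the listing, yet they too exceeded input DNA in the median peak. In the Dzip3 list the median ratios were 4.67 for Ring1B and 3.60 for ubH2A. In the Ring1B list they were 4.95 for Dzip3 and 4.24 for ubH2A. In the ubH2A list they were 3.14 for Dzip3 and 3.60 for Ring1B.

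Within 100 kb of a TSS, 5 of 10 members had a Dzip3 peak (Pou5f1, Nanog, Klf2, Tbx3 and Prdm14), against 36.4% of all protein-coding genes. For Ring1B it was 6 of 10 (Pou5f1, Nanog, Klf2, Esrrb, Zfp42 and Prdm14), against 50.3%. For ubH2A it was 8 of 10, all but Klf4 and Klf5, against 39% of the genes that could be examined, and for input DNA 1 of 9 (Pou5f1), against 21%. With 10 genes and 1 library for each target, none of these shares carries a test. At the promoter, the counts were 1 of 10 for Dzip3 against 3.13% of all genes, 1 of 10 for Ring1B against 10%, 0 of 10 for ubH2A against 3.37% and 0 of 9 for input DNA against 1.33%. For Ring1B the share among the members equals that over all genes, and for Dzip3 it rests on 1 gene.

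**Figure D1:**
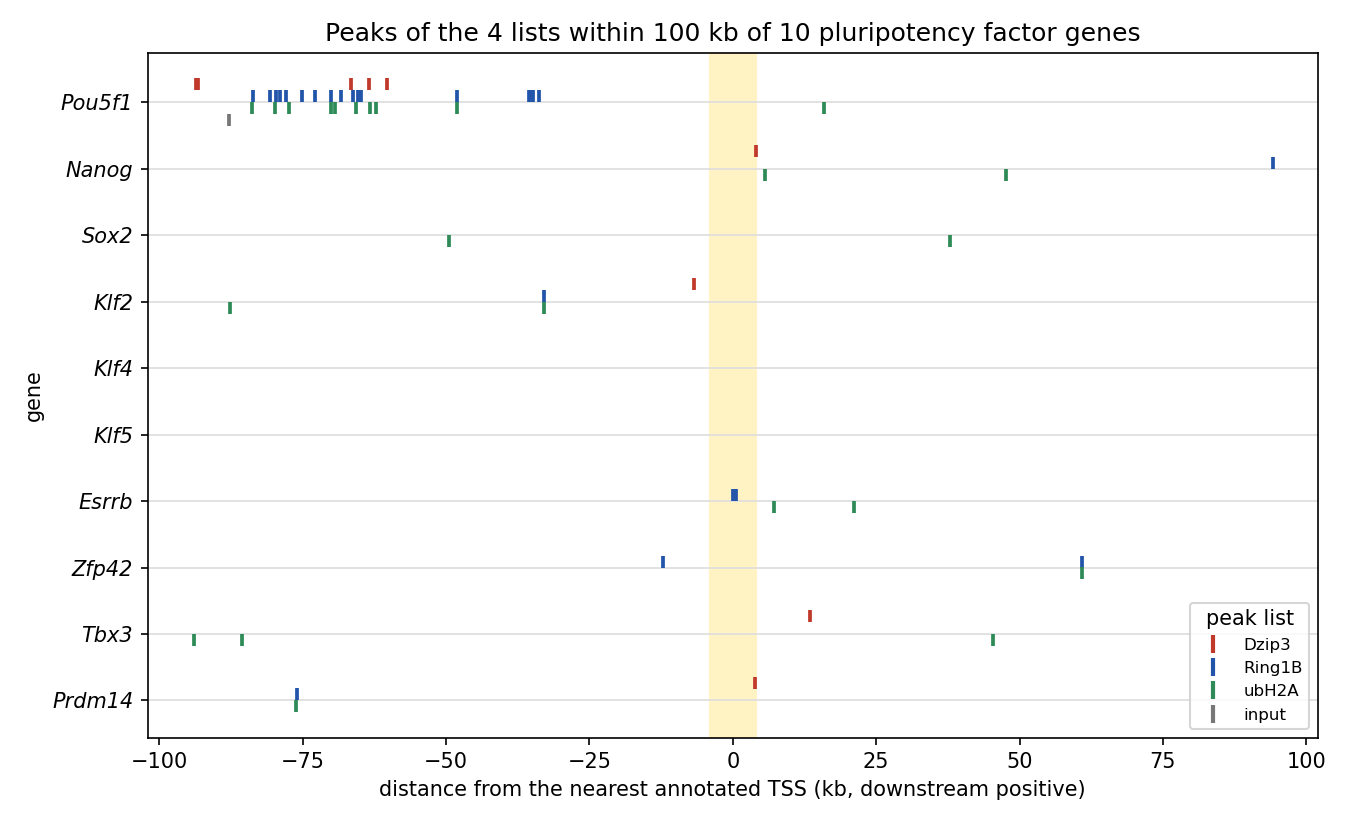
Position of each peak within 100 kb of the 10 genes, as the distance in kb of its nearest edge from the nearest annotated TSS (horizontal axis, downstream positive), with 1 row per gene (vertical axis) and 1 color per peak list. The shaded band is the 4 kb on either side of the TSS, which only the Dzip3 peak of Prdm14 and the 2 Ring1B peaks of Esrrb enter, while 33 of the 57 marks belong to Pou5f1 and none to Klf4 or Klf5.

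Nanog and Prdm14 had a Dzip3 peak on either side of the promoter limit. The Dzip3 peak of Prdm14 (chr1, minus strand, 13103538-13117244), the gene of a PR-domain regulator of germ cells and the naive state, lay 3899 bp downstream of the TSS in an intron. In this peak 75 reads came from the Dzip3 library, 15 from Ring1B, 18 from ubH2A and 3 from input DNA. Dzip3 had a scaled ratio of 19.6 to input DNA there (7.46 to 112) and of 4.73 to Ring1B (2.77 to 9.11). The medians over the Dzip3 list, which was chosen for Dzip3 height, were 8.27 and 1.39. The ratio of Dzip3 to Ring1B was lower in 93.2% of all Dzip3 peaks. In its sequence 67.6% of the 31-base words occurred more than once in the genome, and TG runs took up 37.3% of its bases.

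The Dzip3 peak of Nanog, a homeodomain factor of the core pluripotency network, lay 4014 bp downstream of the nearest TSS and so just past the limit. Nanog is on the plus strand of chromosome 6 (122657507-122664651), and the peak covers part of a coding exon. The reads were 51 for Dzip3, 38 for Ring1B, 34 for ubH2A and 11 for input DNA. Here the libraries were closer together, as Dzip3 exceeded input DNA by a scaled ratio of 4.06 (2.16 to 8.94), Ring1B by 3.12 (1.61 to 6.99) and ubH2A by 2.16 (1.10 to 4.87). In the median Dzip3 peak these ratios were 8.27, 4.67 and 3.60. The ratio of Dzip3 to Ring1B was 1.3 (0.840 to 2.04), near the list median of 1.39. None of the 31-base words in the Nanog peak was repeated in the genome.

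A ubH2A peak lay in the same gene 5616 bp from a TSS, at chr6:122663227-122663436 in a coding exon, with 61 Dzip3, 35 Ring1B, 66 ubH2A and 12 input reads. It did not overlap the Dzip3 peak, yet the reads of Dzip3 (1.15 RPM) and ubH2A (0.985 RPM) in it did not differ beyond counting error, with a ratio of 1.16 (0.807 to 1.67). Farther out, the other peaks near Nanog belonged by distance to its neighbor Slc2a3, a glucose transporter gene. A ubH2A peak at 47.6 kb (48 Dzip3, 16 Ring1B, 77 ubH2A and 10 input reads) lay in an intron of Slc2a3. A Ring1B peak at 94.1 kb lay 74 bp from a TSS of Slc2a3, with 8 Dzip3, 83 Ring1B, 59 ubH2A and 2 input reads and a scaled ratio of Ring1B to input DNA of 31.2 (10.4 to 325).

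Klf2 and Tbx3 had Dzip3 peaks outside the promoter window and outside any annotated gene. In both the ratio of Dzip3 to Ring1B was high for the Dzip3 list. Klf2 (chr8, plus strand, 74842932-74845555), a Krüppel-like factor of the naive network, had its Dzip3 peak 6738 bp upstream, with 59 Dzip3, 10 Ring1B, 20 ubH2A and 10 input reads. Dzip3 was higher than input DNA by a scaled ratio of 5.14 (2.71 to 11.7) and higher than Ring1B by 5.51 (2.91 to 12.6), while Ring1B and input DNA did not differ beyond counting error (0.933, 0.349 to 2.50). Scaled by reads in input peaks that no ChIP peak overlaps, in place of library size, Ring1B exceeded input DNA there (3.72, 1.39 to 9.96). Of all Dzip3 peaks, 94.9% had a lower ratio of Dzip3 to Ring1B. In height, however, the Klf2 peak exceeded only 23.9% of the Dzip3 list, and in the ratio of Dzip3 to input DNA only 36.1%.

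Tbx3 (chr5, plus strand, 120120678-120134733), a T-box factor that supports self-renewal, had the strongest Dzip3 peak of the 10 genes, 13.4 kb downstream of a TSS at chr5:120144201-120144523. It held 114 Dzip3, 15 Ring1B, 32 ubH2A and 0 input reads, and its height of 1.26 RPM exceeded that of 80.2% of the Dzip3 list. With no input read, Dzip3 was 34.5 times a floor of 3 input reads, and the lower bound of its ratio to input DNA was 27.6. Dzip3 exceeded Ring1B by 7.18 (4.29 to 13.6), more than in 96.8% of the Dzip3 list, and ubH2A by 4.43 (3.01 to 6.86). Ring1B and ubH2A also exceeded input DNA there, with lower bounds of 3.35 and 5.90 for their ratios. Only 1.71% of the 31-base words in the Tbx3 peak were repeated in the genome.

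The remaining 5 Dzip3 peaks lay near Pou5f1 and are described with that gene. Of the 9 Dzip3 peaks of the members, 7 had a height below the median of the Dzip3 list. Sox2, Klf4, Klf5, Esrrb and Zfp42 had none within 100 kb, and their nearest Dzip3 peaks were 192, 334, 1394, 133 and 365 kb away. Among all protein-coding genes only 2.44% lay farther from a Dzip3 peak than Klf5, a Krüppel-like factor of the early embryo.

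**Figure D2:**
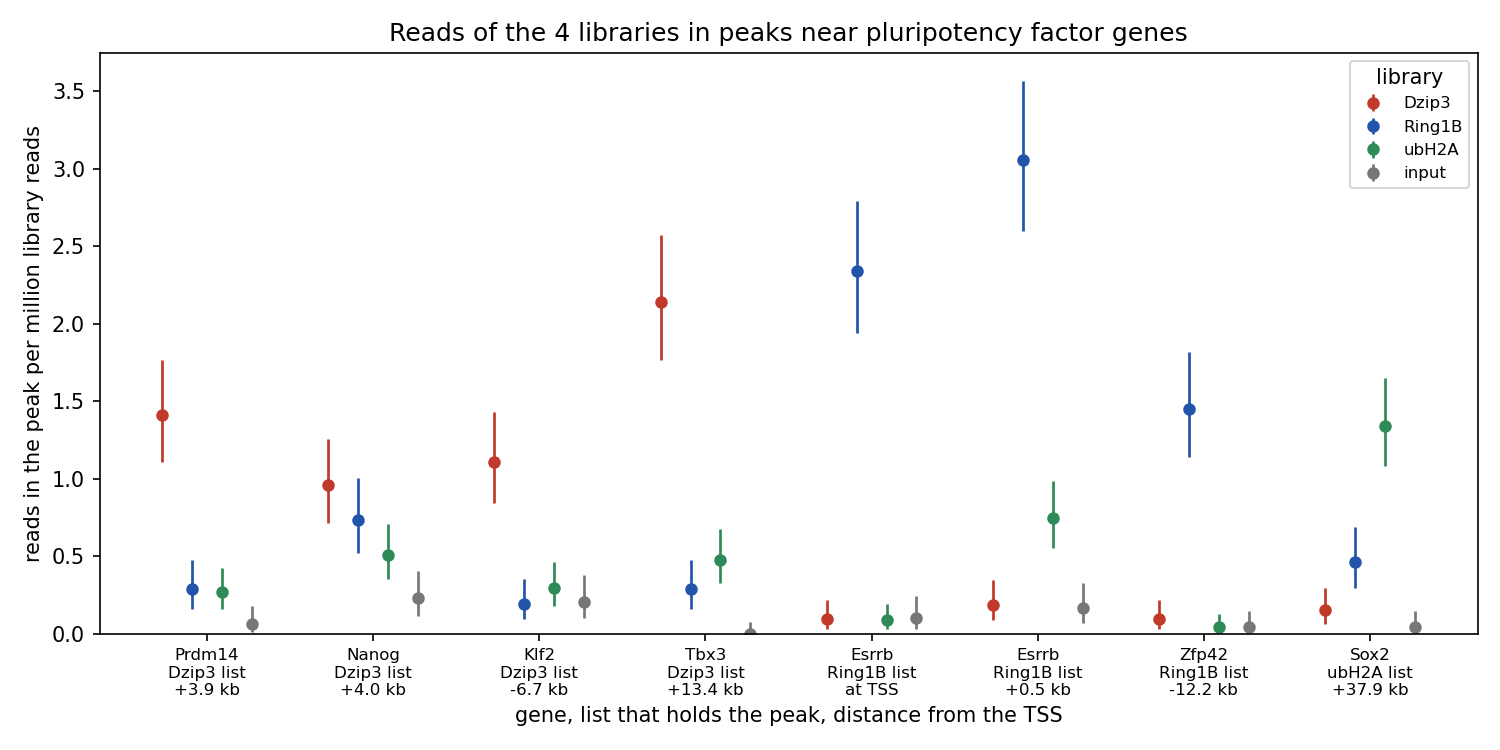
Reads in RPM (vertical axis) of the 4 libraries in 8 peaks near the genes (horizontal axis, with the list that holds the peak and its distance from the TSS in kb). Points are the single value of each library and bars are exact 95% Poisson intervals. The Dzip3 point clears the other 3 in the Prdm14, Klf2 and Tbx3 peaks but not in the Nanog peak, where the Ring1B interval reaches into that of Dzip3.

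Esrrb, the gene of an orphan nuclear receptor that supports self-renewal, was the single member with Ring1B at an annotated TSS. The gene record runs from 87702067 to 87862578 on the plus strand of chromosome 12 and has 5 annotated TSSs. One Ring1B peak, chr12:87762618-87762934, spanned an internal TSS and covered 5′ UTR and coding sequence of the first exon there. A RefSeq promoter window for the same internal start, matched by its letters to mm9, puts the TSS at 87762594, 24 bp upstream of the peak. Reads in the peak were 5 for Dzip3, 121 for Ring1B, 6 for ubH2A and 5 for input DNA. Ring1B stood above the other libraries in this peak, at 20.6 times the scaled input reads (9.41 to 70.8) and 24.2 times ubH2A (11.7 to 72.6). The ratio of Ring1B to ubH2A was lower in 97.9% of all Ring1B peaks.

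A second Ring1B peak 510 bp downstream of a TSS, chr12:87763343-87763869 in an intron, held 10 Dzip3, 158 Ring1B, 50 ubH2A and 8 input reads. In it ubH2A did exceed input DNA, by 4.28 (2.12 to 11), and Ring1B exceeded input DNA by 17.4 (9.13 to 43.4). Dzip3 and input DNA did not differ beyond counting error in either peak, with ratios of 0.907 (0.209 to 3.94) and 1.12 (0.403 to 3.30), though the latter became 3.99 (1.43 to 11.8) with the scaling by input peaks. Both peaks were rich in CpG, with GC contents of 68.0% and 66.2% and observed over expected CpG of 1.04 and 0.830, against medians of 55.5% and 0.302 over all 10119 Ring1B peaks. Measured from the 5′ end of the gene record, the nearest of these peaks lies 60.5 kb away, so the promoter call rests on the internal TSS.

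The ubH2A peaks of Esrrb lay elsewhere. One was 7118 bp downstream of the first TSS in an intron (chr12:87709185-87709464), with 5 Dzip3, 14 Ring1B, 78 ubH2A and 4 input reads and a ubH2A ratio to input DNA of 12.6 (5.27 to 52.9). The other lay 21.1 kb from a TSS, past the 3′ end of the gene, with 57 Dzip3, 37 Ring1B, 92 ubH2A and 17 input reads. Input peaks around Esrrb were not analysed here, but the authors list 0% overlap with input peaks for all of the ChIP peaks of this gene.

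Zfp42 (Rex1), a zinc-finger gene whose transcription is a common marker of the naive state, lies on the minus strand of chromosome 8 (44380422-44392363). Its nearest Ring1B peak was 12.2 kb upstream, at chr8:44404607-44404827, with 5 Dzip3, 75 Ring1B, 3 ubH2A and 2 input reads. As at the internal start of Esrrb, Ring1B stood above the other libraries, with a ratio of 28.2 to input DNA (9.35 to 294) and of 27.9 to ubH2A (10.7 to 160.5), the latter higher than in 98.4% of all Ring1B peaks. Unlike the Esrrb peaks, all of its 31-base words (100%) were repeated in the genome, and how reads were placed among the copies was not tested. A further Ring1B peak and a ubH2A peak covered nearly the same bases 60.9 kb downstream, nearer to the predicted gene Gm2221 than to Zfp42. The Ring1B peak of this pair held 37 Dzip3, 64 Ring1B, 116 ubH2A and 18 input reads, and 89.9% of its words were repeated.

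Near Klf2 and Prdm14 a Ring1B peak was shared with ubH2A. The pair near Klf2 lay 32.9 kb upstream, nearer to the predicted gene Gm10282, and its Ring1B peak held 10 Dzip3, 67 Ring1B, 82 ubH2A and 14 input reads. Ring1B and ubH2A exceeded input DNA alike there, by 4.34 (2.49 to 8.60) and 4.10 (2.38 to 8.06), and Dzip3 did not (0.657, 0.257 to 1.57). The pair near Prdm14 lay 76.0 kb upstream in an intron of Ncoa2, a nuclear receptor coactivator gene, and its Ring1B peak held 59 Dzip3, 144 Ring1B, 117 ubH2A and 4 input reads. All 3 ChIP libraries exceeded input DNA in this peak, Dzip3 by 12 (4.95 to 50.7), Ring1B by 30.0 (12.8 to 125) and ubH2A by 18.8 (8.01 to 78.6).

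Sox2 and Tbx3 had ubH2A peaks but no Ring1B peak within 100 kb. Sox2 (chr3, plus strand, 34548927-34551383), the HMG-box partner of Oct4, had one 37.9 kb downstream outside annotated genes, at chr3:34586928-34587189, with 8 Dzip3, 24 Ring1B, 90 ubH2A and 2 input reads. The ubH2A ratio to input DNA was 26.1 (8.72 to 272), higher than in 90.8% of the ubH2A list, and Ring1B reads amounted to 0.351 of ubH2A after scaling (0.210 to 0.547). The other lay 49.5 kb upstream in the long non-coding gene Sox2ot, with 18 Dzip3, 15 Ring1B, 69 ubH2A and 5 input reads and a ratio of 9.10 (4.06 to 31.6).

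Tbx3 had 3 ubH2A peaks outside annotated genes. The nearest, 45.4 kb downstream, held 15 Dzip3, 60 Ring1B, 116 ubH2A and 11 input reads, and all of its words (100%) were repeated in the genome. Those 85.5 and 93.9 kb upstream held 69 and 79 ubH2A reads against 1 input read each. The nearest Ring1B peak of Tbx3 was 117 kb away, just past the distance used. A last ubH2A peak near Klf2, 87.6 kb upstream and nearest to Ap1m1, held 7 Dzip3, 10 Ring1B, 51 ubH2A and 7 input reads.

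Klf4, one of the reprogramming factors (chr4, minus strand, 55540013-55545347), and Klf5 (chr14, plus strand, 99697910-99712624) had no peak of any list within 100 kb. The nearest Ring1B peaks were 119 and 169 kb from their TSSs and the nearest ubH2A peaks 733 and 2262 kb. Only 0.142% of the genes examined lay farther from a ubH2A peak than Klf5.

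Pou5f1 (chr17, plus strand, 35642982-35647721), which encodes Oct4, had the most peaks, yet none of the 33 had Pou5f1 as its nearest gene. All but 1 lay upstream, between 33.8 and 93.6 kb away, in or nearest to H2-Q10, H2-Q7 and H2-Q6. These are neighboring genes of the major histocompatibility complex class I family, and some of the peaks were intergenic, up to 12.4 kb from the nearest TSS. The exception was a ubH2A peak 15.9 kb downstream in a coding exon of Cchcr1 (chr17:35662278-35662536), with 10 Dzip3, 27 Ring1B, 81 ubH2A and 0 input reads. There ubH2A was 19.5 times the floor of 3 input reads, the lower bound of its ratio to input DNA was 15.5, and no 31-base word was repeated.

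Of the 17 Ring1B peaks in the upstream cluster, the nearest was in H2-Q10 at 33.8 kb, with 19 Dzip3, 68 Ring1B, 27 ubH2A and 8 input reads. The largest, chr17:35575790-35576730 at H2-Q7, held 107 Dzip3, 394 Ring1B, 134 ubH2A and 40 input reads, which gives Ring1B a ratio of 9.09 to input DNA (6.63 to 13.1). Among the Dzip3 peaks the nearest, at 60.3 kb, held 77 Dzip3, 56 Ring1B, 49 ubH2A and 14 input reads. The one with the most Dzip3 reads, in a coding exon of H2-Q7, held 82, 59, 98 and 8 in the same order, and its ratio of Dzip3 to Ring1B was 1.35 (0.955 to 1.92). Over the 5 Dzip3 peaks this ratio ran from 0.451 (0.326 to 0.613) to 3.03 (1.76 to 5.68), and the interval of the highest overlaps those of the Klf2, Tbx3 and Prdm14 peaks.

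The ChIP libraries overlapped in a part of this cluster. Of the 17 Ring1B peaks 5 overlapped a ubH2A peak and 1 a Dzip3 peak. From the other side, a Ring1B peak overlapped 5 of the 10 ubH2A peaks and 1 of the 5 Dzip3 peaks. Over the full lists such an overlap was found for 44.2% of ubH2A and 51.6% of Dzip3 peaks. The scaled ratio of Ring1B to ubH2A in the 17 Ring1B peaks ran from 1.14 (0.846 to 1.53) to 16.8 (10.2 to 31.4). The latter was in a peak of H2-Q10 with 44 Dzip3, 200 Ring1B, 15 ubH2A and 5 input reads. The upstream ubH2A peak with the most reads, 70.1 kb away, held 78 Dzip3, 135 Ring1B, 127 ubH2A and 12 input reads. The 1 input peak, at chr17:35554810-35555090, overlapped none of them and held 25 Dzip3, 20 Ring1B, 47 ubH2A and 40 input reads. Sequence in the cluster was often repeated, as 77.9 to 100% of the 31-base words in the 5 Dzip3 peaks and a median of 66.0% in the Ring1B peaks occurred more than once in the genome. Whether reads from one H2-Q gene were placed at another was not tested.

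Leaving Pou5f1 aside, the other 9 genes had 4 Dzip3, 7 Ring1B and 13 ubH2A peaks. None of the 4 Dzip3 peaks overlapped a peak of another library, as was so for 2382 of the 6482 peaks of the Dzip3 list. All 4 had the member as their nearest gene. Of the 7 Ring1B peaks 3 overlapped a ubH2A peak and 3 had the member as nearest gene. Counted from the other side, 3 of the 13 ubH2A peaks overlapped a Ring1B peak, against 44.2% of the ubH2A list. No ChIP peak of any member overlapped an input peak, whereas such an overlap was listed for 26.6% of the Dzip3 list, 16.2% of the Ring1B list and 28.9% of the ubH2A list. Peaks with over 50% of repeated words were 1 of these 4 for Dzip3, 2 of 7 for Ring1B and 5 of 13 for ubH2A, against 62.6%, 42.3% and 63.1% of the full lists. With the Pou5f1 peaks included they were 6 of 9 (66.7%), 15 of 24 (62.5%) and 12 of 23 (52.2%).

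Runs of TG or CA were looked for in all peaks after they had been seen in the member peaks. In the central 200 bases, 18% of Dzip3 peaks held a run of at least 8 bases (17.1 to 19, Wilson 95% interval), as did 14.8% for Ring1B (14.1 to 15.5), 17.6% for ubH2A (16.7 to 18.6) and 2.75% for input DNA (2.39 to 3.16). Among peaks that no other library's peak overlapped, the shares were 24.8% for Dzip3 (23.1 to 26.5), 14.7% for Ring1B (13.8 to 15.6), 24.4% for ubH2A (22.8 to 26.1) and 1.79% for input DNA (1.46 to 2.20). Dzip3 and ubH2A peaks thus carried such runs at like rates, and the shares of all ChIP lists, Ring1B included, were well above that of input peaks. Input peaks also differed in base composition, with a median GC content of 39.5%, and the share over the genome was not computed.

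At the members, 3 of 9 Dzip3 peaks (Klf2, Tbx3 and Prdm14), 2 of 24 of Ring1B, 4 of 23 of ubH2A and 0 of 1 of input DNA held a run. In the Klf2 pair of Ring1B and ubH2A peaks 32.9 kb upstream, runs made up 25.4% and 26.1% of the bases. Dzip3 did not exceed input DNA beyond counting error there. The peaks of this pair overlap at the same locus, and a link between runs and Dzip3 reads was not tested.

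**Figure D3:**
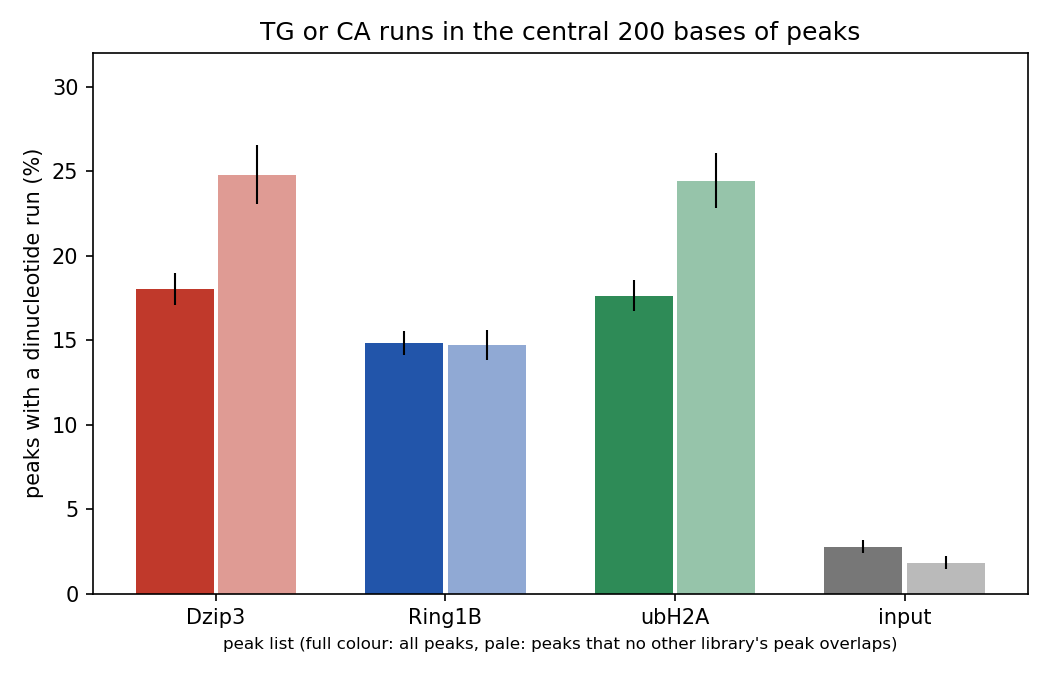
Share in % of the peaks of each list (horizontal axis) whose central 200 bases hold a TG or CA run of at least 8 bases (vertical axis, from 0). Full colors are all peaks and pale colors are peaks that no other library's peak overlaps, with 95% Wilson intervals as bars. Dzip3 and ubH2A rise to 24.8% and 24.4% in the pale bars, Ring1B stays at 14.7% and input DNA at 1.79%.

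The promoters of the members split evenly by base composition. In the window from 250 bases before to 50 after the 5′ end of the gene, Sox2, Klf2, Klf4, Klf5 and Tbx3 were CpG-rich, meaning a GC content of at least 50% and observed over expected CpG of at least 0.6, with CpG values of 0.791, 0.899, 0.974, 0.739 and 0.782. None of these 5 had a Ring1B peak within 4 kb of a TSS, while 12.8% of all 9388 genes with a CpG-rich promoter did. Pou5f1 (0.371), Nanog (0.192), Esrrb at its first TSS (0.266), Zfp42 (0.441) and Prdm14 (0.375) fell below the limit, a class in which 7.95% of 12987 genes had a Ring1B promoter peak. The class rests on the 5′ end of each gene, whereas promoter peaks were counted at any TSS. The Ring1B peaks of Esrrb lay at its internal TSS, outside the window used, and had CpG values of 1.04 and 0.830.

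Motifs of pluripotency factors were searched on both strands in the same windows and in the central 200 bases of the peaks: the octamer ATGCAAAT, the Esrrb motif TCAAGGTCA, the Stat motif TTCCNGGAA, the CACCC box CCACACCC and the E-box CACGTG. None of the 6 sequences printed above holds any of them. Among the other member peaks, the Esrrb motif occurred in a ubH2A peak near Pou5f1 (in 0.361% of all ubH2A peaks). The CACCC box occurred in 1 Dzip3, 1 Ring1B and 2 ubH2A peaks near Pou5f1 and in a ubH2A peak near Tbx3 (1.97%, 1.89% and 2.09% of the lists). The E-box occurred in 2 Ring1B peaks, near Pou5f1 and Zfp42, and in 5 ubH2A peaks, near Pou5f1, Nanog and Zfp42 (5.36% and 5.12%), and the octamer and the Stat motif in none. Among the member promoters, Zfp42 held the octamer (in 1.73% of all promoters) and the CACCC box (3.68%), and Klf4 held an E-box (7.78%). No member promoter held the Esrrb motif (0.358%) or the Stat motif (1.15%).

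The comparison with other gene groups shows where these genes stood. Ring1B lay at the promoter of 9 of 9 lineage genes, regulators of germ layers and early tissues, as at Pax6 (632 Ring1B and 2 input reads), T (345 and 1) and Gata6 (161 and 0). It lay at 5 of 9 genes of the formative and primed states, as at Pou3f1 (943 and 4), Lef1 (1039 and 6) and Sox3 (85 and 0). Of 19 other pluripotency genes only Gbx2 had such a peak (62 and 0), close to the 1 of 10 among the members. Dzip3 had no promoter peak at any gene of these lists, and within 100 kb it was found at 1 of 9 lineage genes, 3 of 9 formative and primed genes and 5 of 19 other pluripotency genes. Over all protein-coding genes the shares for Dzip3 were 3.13% at the promoter and 36.4% within 100 kb. ubH2A had no promoter peak either at the 8 lineage, 8 formative and primed and 15 other pluripotency genes that could be examined. The lack of a listed ubH2A peak at the promoters was thus not particular to the members, and only 3.37% of all genes examined had one. It does not mean that ubH2A reads were missing there, as ubH2A exceeded input DNA in the second Ring1B peak of Esrrb.

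Of the family relatives of the members, 9 of 25 had a Ring1B promoter peak and 16 did not. The T-box genes Tbx2, Tbx4 and Tbx5 had Ring1B at 0, 0 and 0.461 kb from a TSS, against 117 kb for Tbx3. The POU genes Pou3f3 (1052 Ring1B and 4 input reads), Pou3f1 and Pou3f2 (674 and 4) had it at their promoters, while Pou3f4, like Pou5f1, did not, with the nearest Ring1B peak 875 kb away. Sox3 had it at 0.106 kb, against 192 kb for Sox2. Esrrg resembled Esrrb, with a Ring1B peak at a TSS, whereas the nearest one to Esrra was 4.37 kb away. Among the 14 Krüppel-like relatives, Klf14 alone had a Ring1B promoter peak. Prdm1, the relative of Prdm14, had none, with Ring1B 60.0 kb away. For lack of replicates these differences are between genes in 1 library.

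**Figure D4:**
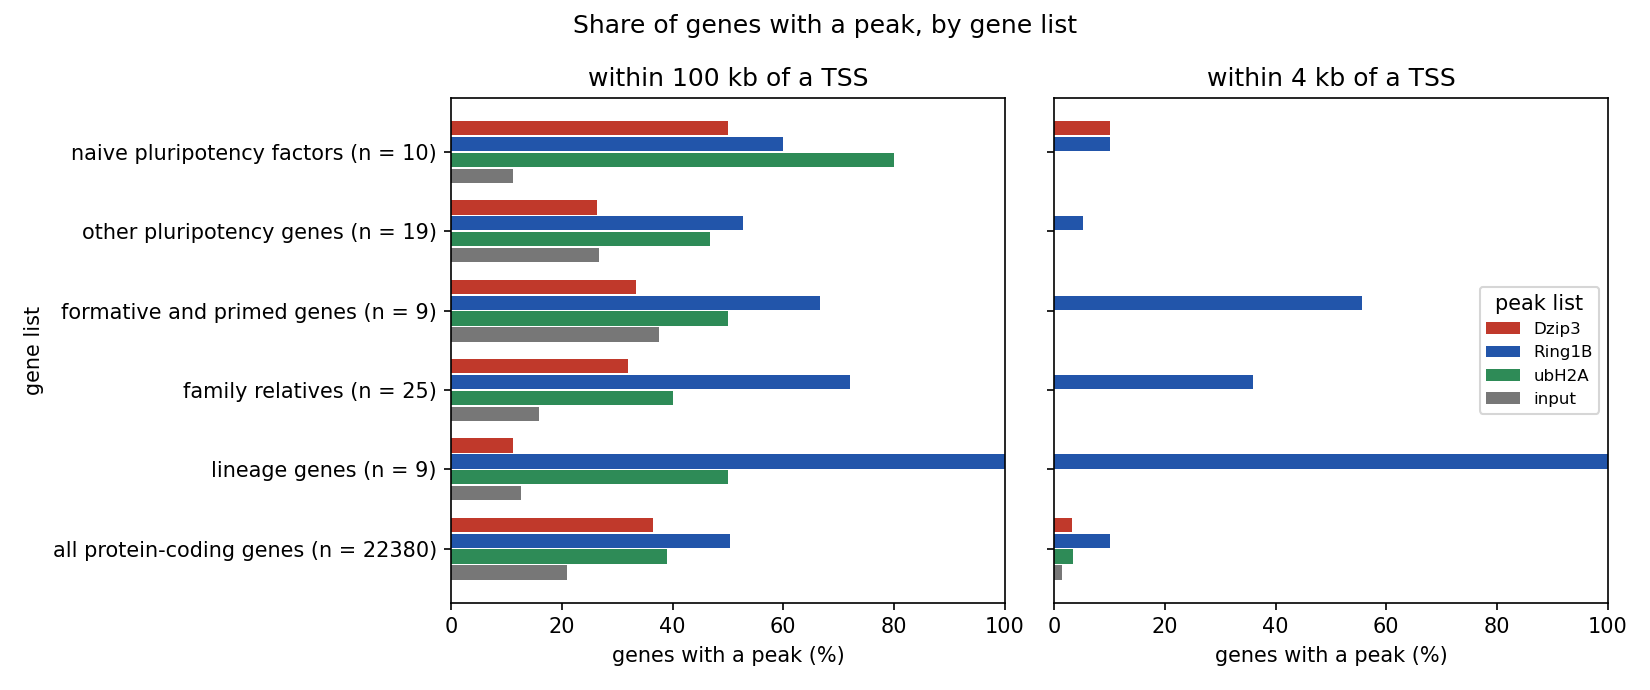
Share of genes in % (horizontal axes, 0 to 100) with a peak within 100 kb (left) and 4 kb (right) of a TSS, by gene list (vertical axis) and peak list (color). The n in the labels is the number of genes for Dzip3 and Ring1B, and fewer could be examined for input DNA (9 of the members) and, outside the members, for ubH2A. Ring1B reaches 100% of lineage genes in the right panel and 10% of the naive factors, the same share as over all genes.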

How the data were processed

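The data are 4 ChIP-seq libraries, 1 per target. The authors aligned reads to mm9 with 1 mismatch allowed and called peaks library by library with Partek software (FDR 0.1). The deposited lists hold, for each peak, the counts of reads of all libraries (raw, not normalized), the count of extended reads at its highest point, its height as a coverage signal in RPM, the scaled ratio (fold) to input DNA, p-values, which were not used, and the percent of its length that other peaks cover. All of these values were made by the authors. The median listed fold was 7.84 for Dzip3 peaks, 13.6 for Ring1B and 4.71 for ubH2A.

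Library sizes were the extended reads divided by RPM. A row with a wrong number of columns was left out of the ubH2A and of the input list (1 each), and the chromosome stretches lost with them (on chromosomes 1, 10 and 11, and for input DNA also 12) were not analysed here, which leaves 18965 and 18396 of 22380 genes for these lists. TSSs came from GENCODE vM1 on the same build, and a distance runs from the nearest peak edge. Sequence was read from the listed start for the listed length. Intervals are exact Poisson for reads, Clopper-Pearson for ratios and Wilson for shares, at 95%. Repeated words are the 31-base words of a peak that occur more than once in the genome on either strand. RefSeq promoter windows (GRCm38.p6) were held for 7 of the 10 members and all 10 windows matched mm9 by their letters.

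No p-value was computed, since each target has 1 library. All members were named, as were all promoter peaks, the nearest and the largest peak for each member and list, and any gene nearer to such a peak. Genes of the comparison lists were named for a promoter peak of Dzip3, or of Ring1B when among the 3 highest by listed fold, and the relatives were named after their values were seen. In the comparison lists 19 of 20, 9 of 9, 9 of 10 and 25 of 26 symbols matched the annotation (not Tfcp2l1 and Sox1), and a gene can be in more than 1 list. The members and lists were chosen with earlier results of these data known. Alternatives were other distances, 1 TSS per gene, peak centers, the stronger 50% of each list, input-overlapping peaks left out, and for ratios another pseudocount and library scaling. The distance step was tested on simulated data and recovered 2000 of 2000 planted distances. Calculations ran in Python 3.11.15, with pandas 2.3.3 and numpy 2.4.6 for tables, scipy 1.17.1 for intervals, numba 0.67.0 for the word search and matplotlib 3.10.9 for plots.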

Additional observations from a re-analysis of the deposited data

How the results depend on the processing

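No paired analysis was possible because each target was sequenced in a single library. The count of members with a peak moved with the distance used. Within 10 kb in place of 100 kb it was 3 for Dzip3 (5 at 100 kb), 1 for Ring1B (6), 2 for ubH2A (8) and 0 for input DNA (1), and within 50 kb input DNA also gave 0. In the stronger 50% of each list by height it was 2 for Dzip3, 3 for Ring1B and 0 for input DNA. At the promoter, Dzip3 went from 1 to 0 within 1 kb or with the peak center in place of its edge, and to 3 within 10 kb, which adds Nanog and Klf2. Ring1B went from 1 to 0 with only the 5′ end of each gene record as TSS, since its Esrrb peaks lie at an internal start, and ubH2A went from 0 to 2 within 10 kb (Nanog and Esrrb). Leaving out peaks with over 50% of repeated words, an alternative chosen after seeing the data, gave 3 members for Dzip3 within 100 kb, 0 at the promoter and 0 for input DNA within 100 kb. The other 38 counts stayed within 1.5 times the reported one. Scaling the libraries by the reads in input peaks that no ChIP peak overlaps moved 118 of 168 ratios to input DNA. Those peaks were chosen for high input (4580 RPM of input DNA against 1149 to 1497 RPM of the ChIP libraries), so this scaling can only raise a ChIP ratio, by 3.56 for Dzip3, 3.99 for Ring1B and 3.06 for ubH2A. Of 112 ratios of a library in a peak of another list, 28 were not above 1 beyond counting error by library size, and 21 of these were with this scaling. At the Klf2 pair Dzip3 went from 0.657 to 2.34 (0.917 to 5.58). Equal library sizes or 1 added read moved no ratio beyond its interval. Depth sets a floor of 31 to 33 extended reads for a ChIP peak, and weaker binding at the 8 genes without a promoter peak was not detectable in these lists.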
